A study of Mus musculus with 8 samples.

Results

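The genes of the phagocyte NADPH oxidase were followed through H4K12la peak lists of mouse brain. The set consists of 7 genes chosen by name: Cybb, Cyba, Ncf1, Ncf4, Rac1, Rac2 and Vav1, out of 21883 protein-coding genes on the assembled mouse chromosomes (1 to 19, X, Y). A peak was assigned to a gene when it overlapped, by at least 1 base, the RefSeq span of the gene on GRCm38 or the 2 kb on either side of it. H4K12la is lactylation of lysine 12 of histone H4, a modification whose acyl group derives from lactate, and it was mapped by CUT&Tag, in which an antibody guides a transposase to the modified chromatin.

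The 8 libraries were prepared from 5XFAD mice, which carry mutated human transgenes for familial Alzheimer disease driven by a mouse Thy1 promoter active in neurons, and from wild-type (WT) mice. For each genotype there were 2 libraries of microglia, enriched with CD11b-coated beads, and 2 libraries of total cells of the dissociated brain without cerebellum. All mice were perfused and all cell suspensions were freed of myelin debris. The labels give neither ages nor whether 2 libraries of 1 group stem from different animals, so each p-value reflects only the spread among the samples at hand, which may be technical. The design asks which genes carry H4K12la in each cell preparation and genotype.

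The phagocyte oxidase moves electrons from cytosolic NADPH across a membrane to oxygen and so produces superoxide. Its membrane core, the heterodimer of CYBB (gp91phox, also NOX2) and CYBA (p22phox), is idle until cytosolic subunits, among them p47phox (Ncf1) and p40phox (Ncf4), and a Rac GTPase join it. Vav proteins load Rac with GTP downstream of immune receptors. In the brain, microglia are the main resident cells that use this enzyme.

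The microglia lists held 29947 and 41783 peaks in 5XFAD mice and 22300 and 33500 in WT mice, and the total cell lists 32967 and 22807 (5XFAD) and 25271 and 22543 (WT). Peaks were wider in microglia, with list medians of 580 to 735 bp against 287 to 366 bp in total cells. A microglia list covered 15.3 to 36.3 Mb and a total cell list 7.80 to 14.8 Mb, and covered bases are therefore also given per Mb of the list. Read counts are not part of the lists, so the depth is unknown and a missing peak means only that none was listed. Of 12 microglial markers, 11 or 12 had a peak in each microglia library and 2 to 7 in each total cell library. Of 8 markers of neutrophils and monocytes, cells that also use this oxidase and can be bound by CD11b beads, 0 to 2 had a peak in each microglia library, with 0 to 0.391 kb covered in sum, and S100a9, Ly6g, Mpo, Cd177, Ccr2 and Ly6c2 had none in any library. Of 4 markers of border macrophages, Mrc1 had a peak in all 4 microglia libraries and in 2 total cell libraries, and Cd163, Lyve1 and Pf4 had none in any library. Markers of other brain cells were not absent from the microglia lists: a peak in all 4 microglia libraries was found for 1 of 5 neuronal markers (Rbfox3), 2 of 4 astrocyte markers (Slc1a3 and Aldh1l1), 2 of 3 oligodendrocyte markers (Mbp and Mag) and 2 of 4 vascular markers (Pecam1 and Flt1), while Snap25, Tubb3, Aqp4 and Cldn5 had none in any library. In total cells the counts of such markers with a peak in all 4 libraries were 1, 2, 1 and 1 in that order.

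Promoter sequences were available for Cyba, Ncf1, Vav1 and Cybb, and are shown because the genes differed in whether peaks reached the start site. Each runs 5′ to 3′ on the gene's strand, from 250 bases before to 50 after the RefSeq start of transcription (GRCm38.p6), and capitals mark letters of any of the 8 motifs searched on both strands. The windows are chr8:122432891-122433190 for Cyba, chr5:134229576-134229875 for Ncf1 and chrX:9469275-9469574 for Cybb, all on the minus strand, and chr17:57278850-57279149 on the plus strand for Vav1.
Cyba: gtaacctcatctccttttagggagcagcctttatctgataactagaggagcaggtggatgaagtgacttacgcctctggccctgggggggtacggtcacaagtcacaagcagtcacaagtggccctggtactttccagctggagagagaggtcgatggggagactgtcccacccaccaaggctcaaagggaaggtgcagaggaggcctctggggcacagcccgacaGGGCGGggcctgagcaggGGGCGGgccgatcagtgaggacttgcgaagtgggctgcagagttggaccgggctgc
Ncf1: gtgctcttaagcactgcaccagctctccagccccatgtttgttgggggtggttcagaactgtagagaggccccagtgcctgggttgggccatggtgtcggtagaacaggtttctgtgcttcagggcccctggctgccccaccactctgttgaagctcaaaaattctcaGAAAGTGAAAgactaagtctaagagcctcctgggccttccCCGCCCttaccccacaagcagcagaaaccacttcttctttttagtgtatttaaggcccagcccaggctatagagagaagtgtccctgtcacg
Vav1: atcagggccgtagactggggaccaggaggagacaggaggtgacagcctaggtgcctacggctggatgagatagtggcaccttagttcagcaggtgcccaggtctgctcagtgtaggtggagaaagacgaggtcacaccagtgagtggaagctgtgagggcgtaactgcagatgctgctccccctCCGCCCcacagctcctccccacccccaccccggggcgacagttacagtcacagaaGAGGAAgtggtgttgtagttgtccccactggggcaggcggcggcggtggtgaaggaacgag
Cybb: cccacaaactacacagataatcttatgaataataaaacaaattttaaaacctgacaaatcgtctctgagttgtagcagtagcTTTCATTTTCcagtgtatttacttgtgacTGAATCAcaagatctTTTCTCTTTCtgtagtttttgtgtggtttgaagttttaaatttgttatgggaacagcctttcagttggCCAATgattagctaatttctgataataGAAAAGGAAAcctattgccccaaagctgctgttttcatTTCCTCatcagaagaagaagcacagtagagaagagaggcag
The Cyba window was covered over all 300 bases in 7 libraries and over 228 bases in total cells WT 2, while none of the other 3 windows was touched by a peak in any library. Over 21262 promoter windows of protein-coding genes, 21.8% to 34.5% were touched in each microglia library and 23.7% to 30.1% in each total cell library. The Cyba promoter holds 2 copies of the GC box GGGCGG, which Sp1 family factors bind, a motif found in 35.7% of all 32851 promoter windows. Ncf1 and Vav1 hold 1 GC box each. The core GAGGAA of ETS factors such as PU.1, the master regulator of myeloid cells, lies in the Vav1 and Cybb windows and in 28.3% of all windows. The interferon response motif occurs 3 times in the Cybb window and once in that of Ncf1, and in 3.44% of all windows. Cybb also holds 1 AP-1 motif TGANTCA (7.81% of windows) and 1 CCAAT box (37.4%), and none of the motifs overlap each other in these sequences. The 4 windows held no NF-kappa-B motif, no ACGTG of the hypoxia factors and no TATAAA, which were found in 1.63%, 19.6% and 13.6% of all windows.

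All 7 genes had a peak in at least 1 library, as did 66% of all protein-coding genes. Of the 7 genes, 6 had peaks in all 4 microglia libraries (39% of all genes). Cyba alone (1 of 7) had peaks in all 4 total cell libraries (33% of all genes), and thereby in all 8 (26.7%). By library, 6 and 7 of the oxidase genes had a peak in 5XFAD microglia, 6 and 6 in WT microglia, 4 and 4 in 5XFAD total cells and 2 and 2 in WT total cells. In total cells, fewer microglia among the cells and less of the mark per microglial cell cannot be told apart. The share of all genes with a peak varied less, from 42.4% to 56.1% in microglia and from 44.6% to 51.9% in total cells. Ncf1 and Rac2 met the strictest pattern, a peak in each of the 4 microglia libraries with none in total cells, which 1.2% of all genes and 1.82% of the genes with any peak met. The opposite pattern was met by 0 of the 7 oxidase genes and by 0.982% of all genes.

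**Figure D1:**
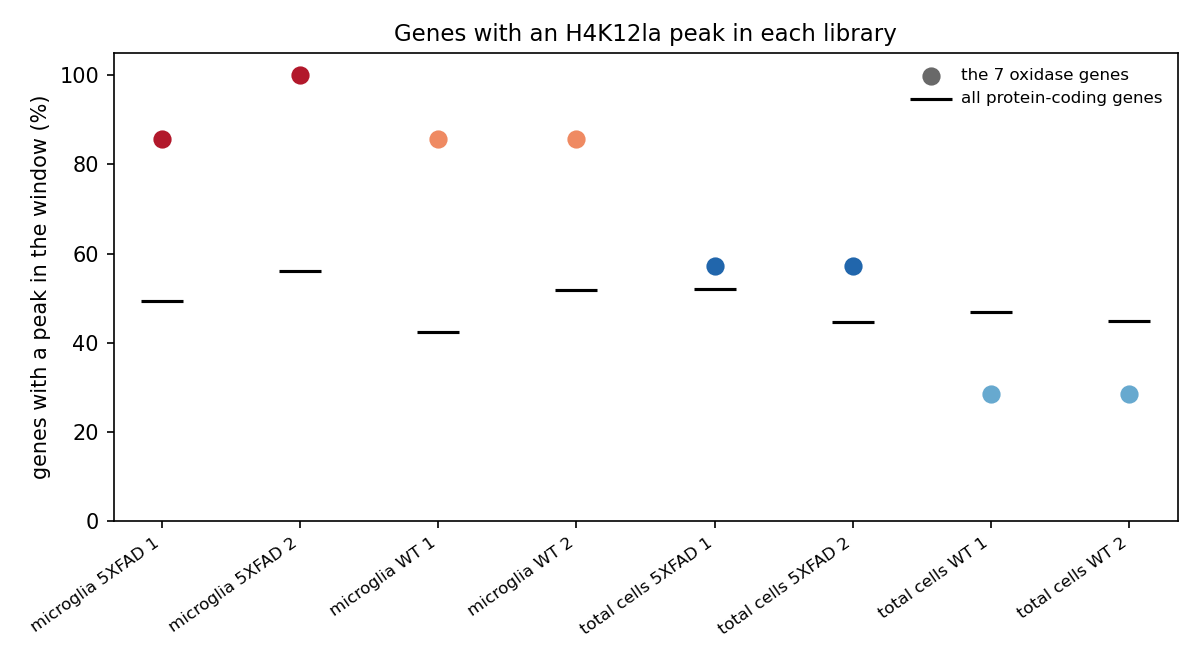
Percentage of genes with an H4K12la peak in the gene or within 2 kb of it, for each of the 8 libraries along the horizontal axis. Coloured points are the 7 oxidase genes and black bars all 21883 protein-coding genes. The oxidase genes lie above the bar in all 4 microglia libraries and in both total cell libraries of 5XFAD mice. They lie below it in both total cell libraries of WT mice.

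Merging the 8 lists gave 31 separate regions in the windows of the oxidase genes, made of 75 peaks in microglia and 16 in total cells. None of the regions overlapped the span of another protein-coding gene. A peak in all 4 microglia libraries was found at 11 of the 31 regions (35.5%), against 23.2% of the 58393 regions in the windows of all genes, and 5 of the 31 (16.1%) had in addition no peak in total cells, against 4.10% for all genes. Of the 11 regions, 6 (54.5%) also had a total cell peak, against 82.3% for all genes. Each of the 9 regions with a total cell peak also had a microglia peak, so that 0 regions were found in total cells alone, whereas 32.5% of the regions of all genes were. Another 11 regions (35.5%, against 37.2% for all genes) came from 1 library only, 9 of them from microglia 5XFAD 2, which has the longest list.

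**Figure D2:**
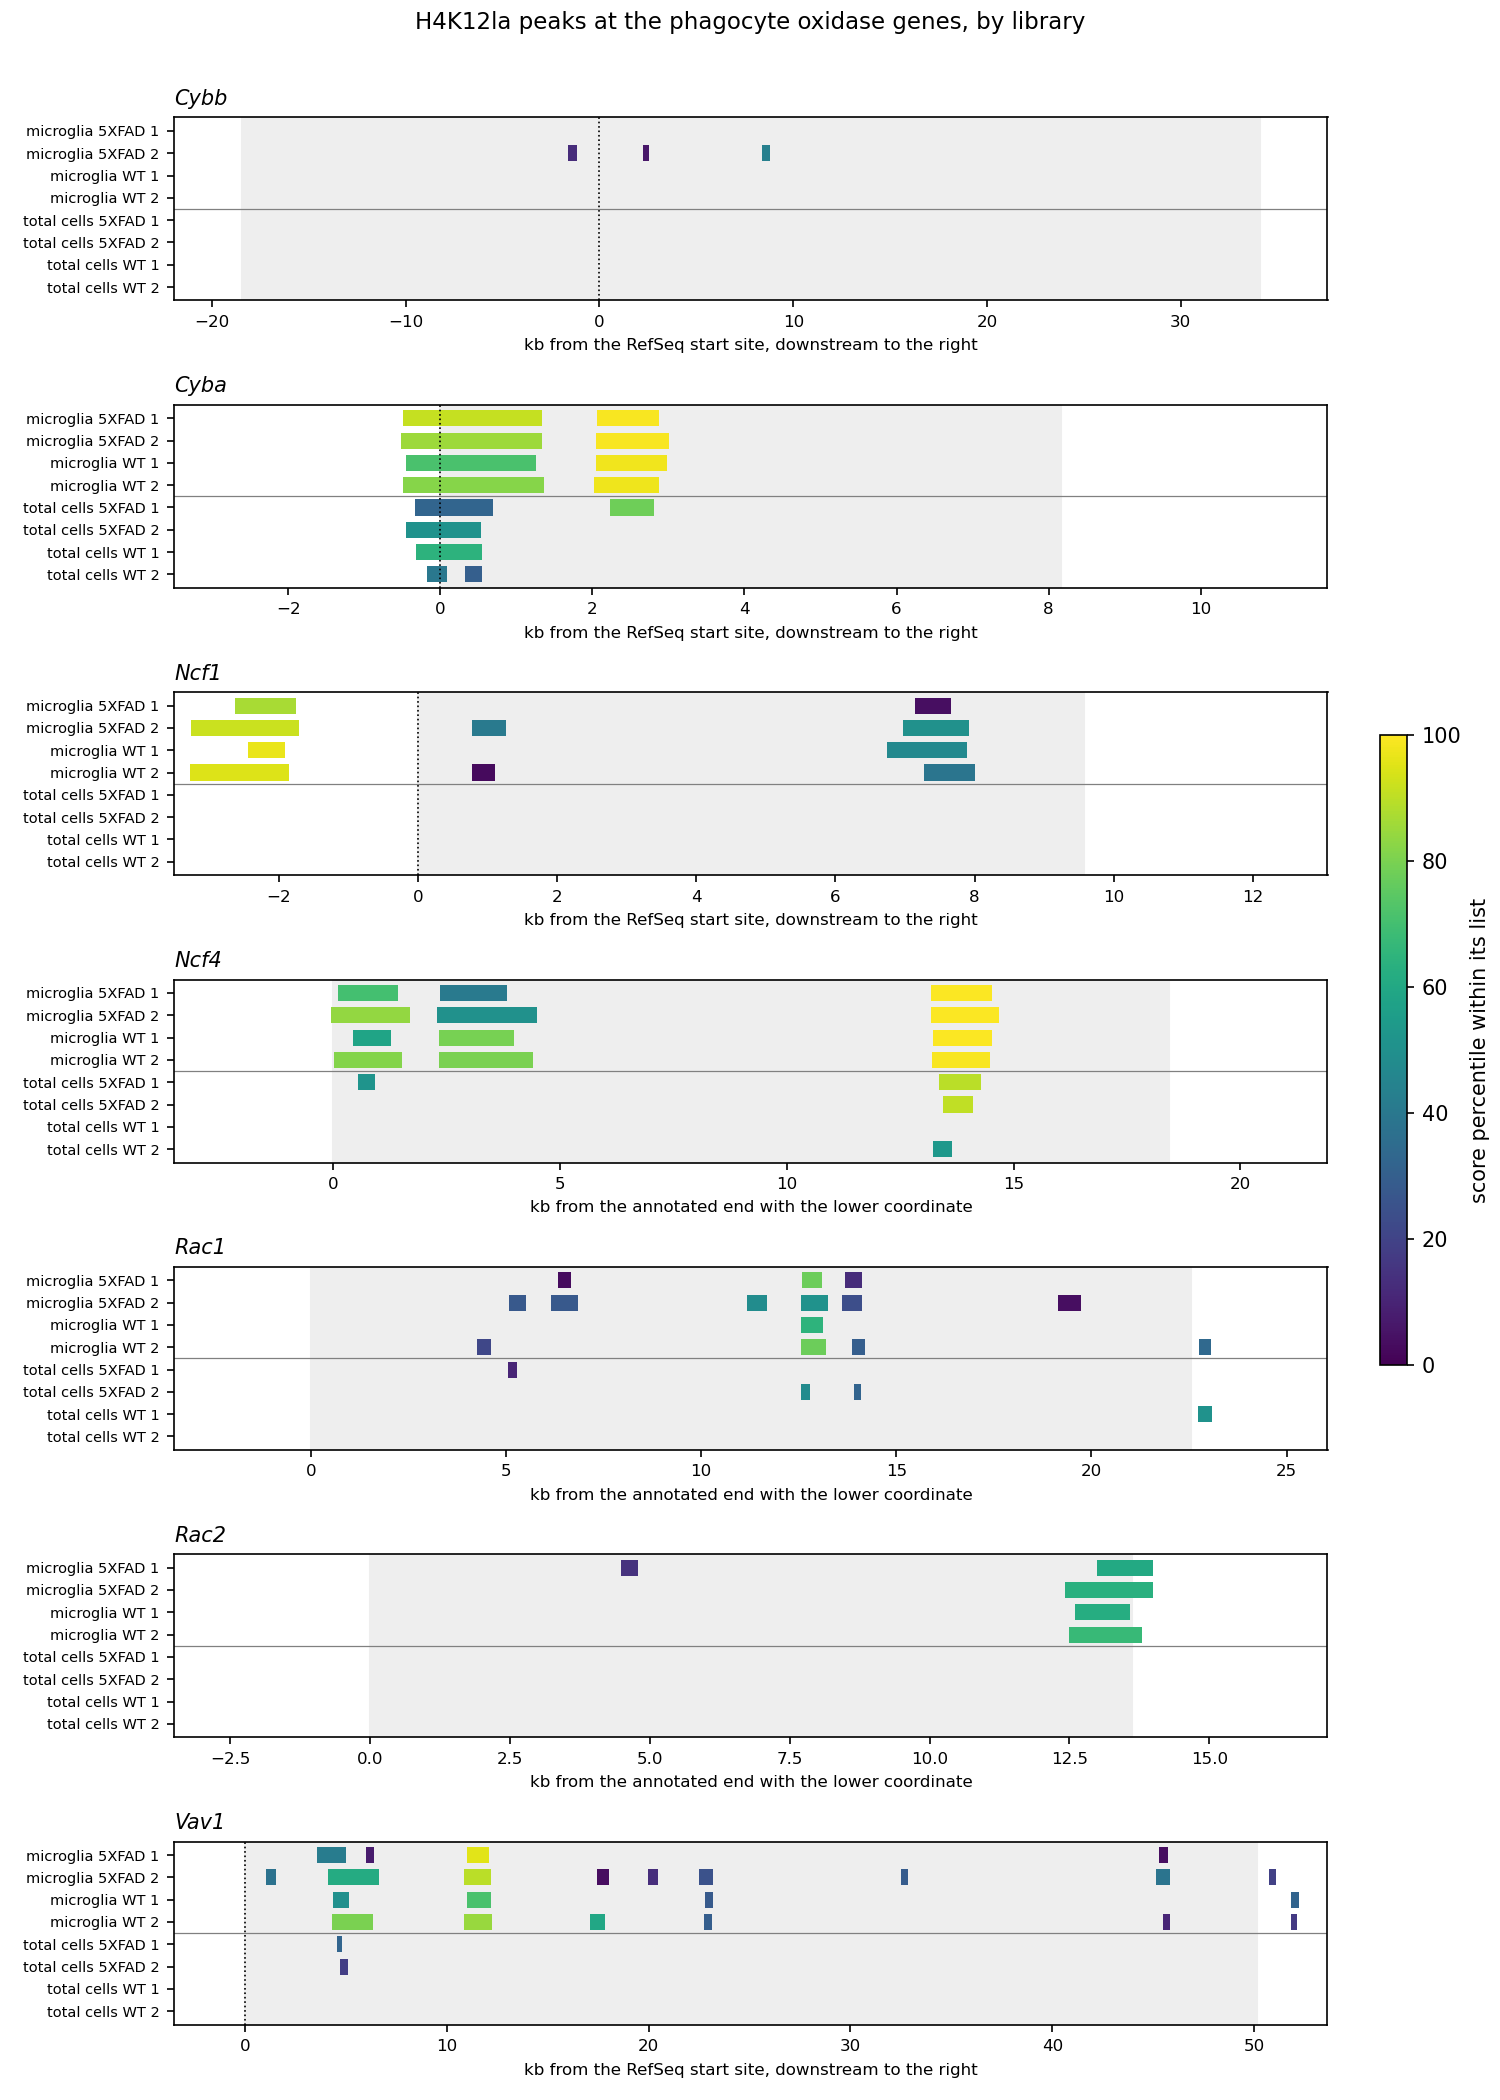
Peaks of the 8 libraries along each gene, with distance in kb on the horizontal axis and libraries from top to bottom. Grey shading is the gene, the dotted line the RefSeq start site where one was available, and colour the percentile of the peak's score within its own list; at Cyba and Ncf4 the brightest peaks are in microglia, and at Ncf1 and Rac2 the total cell rows are empty.

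Of the membrane core, Cyba carried H4K12la in every library and Cybb in only one. Cyba (gene 13057, chromosome 8, 122424771 to 122432940) encodes p22phox, the small subunit that stabilises CYBB and docks p47phox. In its window 2648 and 2816 bases were covered by peaks in 5XFAD microglia and 2652 and 2725 in WT microglia, against 1602 and 990 in 5XFAD total cells and 866 and 494 in WT total cells. Every microglia value was above every total cell value, and the 4 microglia values were close to each other (2710 ± 78.9 bases in microglia, against 988 ± 460 in total cells; SD, n = 4). Per Mb of the list the preparations overlapped, at 77.6 to 173 in microglia and 63.3 to 115 in total cells.

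The Cyba peaks fell into 2 regions. The first spanned the start site, from 0.515 kb upstream to 1.37 kb downstream, and was the only one of the 31 regions found in all 8 libraries. Its peaks were 1827 and 1851 bp wide in 5XFAD microglia and 1712 and 1861 bp in WT microglia, against 1026 and 990 bp in 5XFAD total cells, 866 bp in total cells WT 1 and 494 bp in sum over 2 peaks in total cells WT 2. The second region lay inside the gene, 2.02 to 3.01 kb downstream of the start, and was present in all microglia libraries and in total cells 5XFAD 1. There the authors' score, expressed as a percentile within its own list, was 98.9 and 98.9 in 5XFAD microglia and 97.8 and 97.5 in WT microglia, and 78.1 in total cells 5XFAD 1. In the microglia lists the internal region thus ranked above the start region, whose percentiles were 91.2, 85.2, 71.4 and 81.7 in the same order.

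Cybb (gene 13058, chromosome X, 9435252 to 9487766), which encodes the catalytic subunit that holds the haems and the NADPH site, had 3 peaks, all in microglia 5XFAD 2. They covered 1183 bases, and the other 7 libraries had 0. Their score percentiles were 43.3, 6.16 and 12.3, so that all 3 stood in the lower-scoring part of the longest list. They lay 8.39 kb and 2.25 kb downstream and 1.18 kb upstream of the RefSeq start site, within the annotated span. When every list was limited to its 22300 highest-scoring peaks, Cybb had 0 covered bases in all 8 libraries.

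The genes of the cytosolic subunits Ncf1 and Ncf4 were marked in all microglia libraries. Ncf1 (gene 17969, chromosome 5, 134220053 to 134229628) encodes p47phox, the organiser that is phosphorylated on activation and carries the complex to the membrane. Its window had 773 and 1748 covered bases in 5XFAD microglia and 1250 and 1218 in WT microglia, against 0 in all 4 total cell libraries. The 5XFAD libraries enclosed the WT values from both sides. The highest-scoring peak lay outside the gene, 1.71 to 3.28 kb upstream of the start site, with percentiles of 86.9 and 91.8 in 5XFAD microglia and 96.7 and 94.5 in WT microglia. In each library most of this peak lay beyond the 2 kb flank, and only the part within it entered the covered bases. With peaks placed by midpoint, the mean difference from total cells at Ncf1 was 1050 bases, against 1247 in the main setting. A weaker region 6.74 to 8.01 kb downstream of the start was also found in all 4 microglia libraries, with percentiles of 3.90 to 50.2.

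Ncf4 (gene 17972, chromosome 15, 78244164 to 78262582) encodes p40phox, which binds a phosphoinositide of phagosome membranes and sustains oxidase activity there. Peaks covered 4138 and 5448 bases in 5XFAD microglia and 3794 and 4864 in WT microglia, against 1306 and 671 in 5XFAD total cells and 0 and 425 in WT total cells. The preparations did not overlap, and they did not overlap per Mb of the list either (150 to 248 in microglia, 0 to 88.3 in total cells). Ncf4 held the highest-ranking peak of the set, a region inside the gene, 13.2 to 14.7 kb from the annotated end with the lower coordinate. Its percentiles were 99.3 and 99.4 in 5XFAD microglia and 99.3 and 99.1 in WT microglia, and in each of these lists only 1.36% to 2.06% of the genes with a peak had one that ranked as high. In total cells the same region ranked at 89.8 and 90.6 in 5XFAD mice and 53.3 in WT 2, and had no peak in WT 1. The orientation of Ncf4, Rac1 and Rac2 was not taken from any table used here, so their peaks are placed by coordinate and not relative to a start site. Another region lay at the lower end of Ncf4 in all microglia libraries and total cells 5XFAD 1; the peak of microglia 5XFAD 2, 1724 bp wide, reached across that end, and the peaks of the other libraries began inside the gene. A further region, 2290 to 4504 bases from that end, was in microglia only.

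Rac2, the GTPase form largely confined to blood cells, and the ubiquitous Rac1 are the GTPases that can complete the enzyme. Rac2 (gene 19354, chromosome 15, 78559169 to 78572783) had 1322 and 1581 covered bases in 5XFAD microglia and 976 and 1306 in WT microglia, against 0 in all 4 total cell libraries. Apart from a peak of 310 bp in microglia 5XFAD 1, they belonged to 1 region at the annotated end with the higher coordinate, 1581 bp wide in all, with percentiles of 60.4 and 63.6 in 5XFAD microglia and 61.8 and 67.5 in WT microglia. The peaks of both 5XFAD microglia libraries and of WT 2 reached across that end, and that of WT 1 stopped inside the gene. Between 53.2% and 62.2% of the genes with a peak had a higher or equal best percentile in these lists, so that Rac2 was present throughout but of middling rank.

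Rac1 (gene 19353, chromosome 5, 143505481 to 143528031) had 1269 and 3456 covered bases in 5XFAD microglia and 564 and 1627 in WT microglia, against 215 and 423 in 5XFAD total cells and 351 and 0 in WT total cells. These values were spread over 8 regions, of which 1, 12.6 to 13.2 kb from the lower end, was found in all 4 microglia libraries and in total cells 5XFAD 2. The lowest microglia value was close to the highest total cell value, and per Mb of the list the groups overlapped (36.8 to 95.2 in microglia, 0 to 49.0 in total cells).

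Vav1 (gene 22324, chromosome 17, 57279100 to 57329236), the blood-cell exchange factor that activates Rac, had the most regions, 10 in all. Peaks covered 3425 and 7500 bases in 5XFAD microglia and 2666 and 5247 in WT microglia, against 204 and 390 in 5XFAD total cells and 0 in both WT libraries. All microglia values were above all total cell values, also per Mb of the list (155 to 207 in microglia, 0 to 45.2 in total cells). The highest-ranking region lay 10.8 to 12.3 kb downstream of the start site and was found in microglia alone, with percentiles of 95.6 and 89.6 in 5XFAD mice and 71.4 and 84.7 in WT mice. The region 3.58 to 6.64 kb downstream was marked in all microglia libraries and in both total cell libraries of 5XFAD mice.

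**Figure D3:**
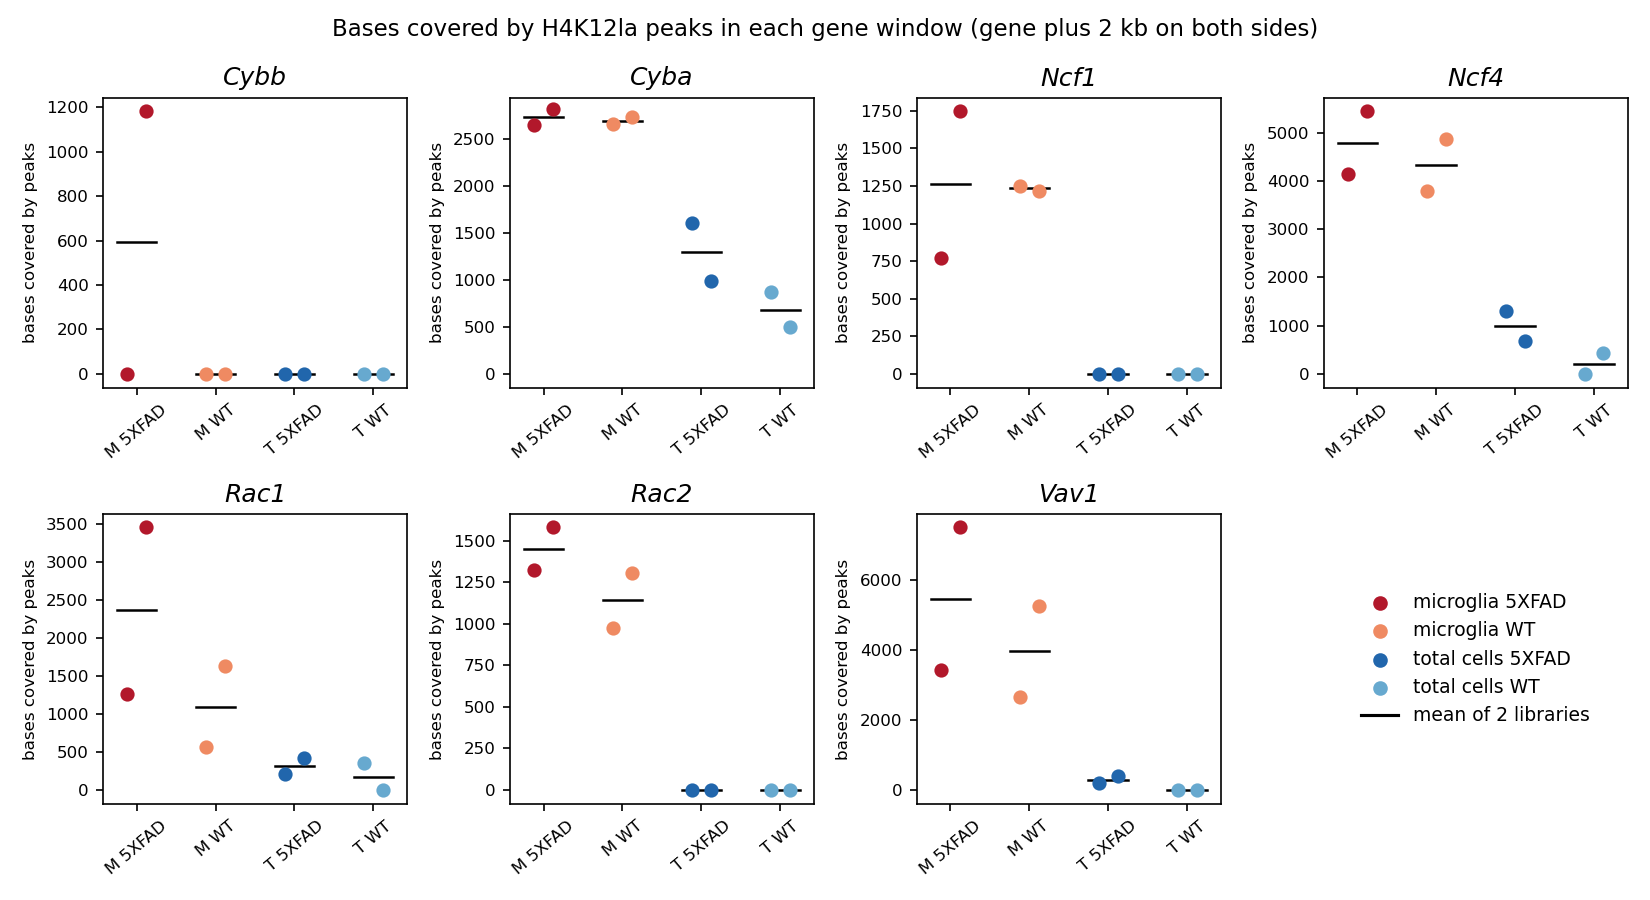
Bases covered by peaks in the window of each gene (vertical axis, own scale for each gene), with 1 point per library and a bar at the mean of the 2 libraries of a group. M stands for microglia and T for total cells; the microglia points lie above all total cell points for every gene but Cybb.

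Tested over all genes, 6 of the 7 oxidase genes, all but Cybb, had more covered bases in every microglia library than in any total cell library, a pattern that 28% of the 14441 genes with a peak showed and 2.49% showed in reverse. For each of the 6 the exact two-sided permutation p was 0.0286, the smallest that 4 libraries against 4 can give, and the Benjamini-Hochberg adjusted p over the 14441 genes was 0.0936. Hence 0 genes passed 0.05 after adjustment, and 4410 genes had an unadjusted p under 0.05. The mean difference, microglia minus total cells, was 1247 bases at Ncf1, 1296 at Rac2, 1482 at Rac1, 1722 at Cyba, 3961 at Ncf4 and 4561 at Vav1, against a median of 415 over all genes with a peak. Per Mb of the list, Ncf1, Ncf4, Rac2 and Vav1 (4 of 7) had every microglia library above every total cell library, against 10.6% of genes. The median share of the window covered was 8.70% in microglia and 0.274% in total cells for the oxidase genes, against 3.09% and 1.25% for all genes with a peak. The part of the wider microglia peaks in these differences was not tested beyond that scaling.

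Between genotypes within a preparation, 2 libraries stood against 2, where the smallest exact permutation p is 0.333, so that no difference could pass a test. In microglia, Rac2 was the 1 gene of 7 with more covered bases in both 5XFAD than in both WT microglia libraries, a pattern shown by 32.3% of the 12939 genes with a microglia peak, and 0 genes of the 7 showed the reverse (3.01% of genes). The Rac2 pattern was absent per Mb of the list (59.8 and 43.6 in 5XFAD, 63.7 and 49.97 in WT microglia). Without microglia 5XFAD 1 the count was 7 of 7 (78% of genes with a microglia peak), and without microglia WT 2 it was 4 of 7 (68.2%). Microglia 5XFAD 2, whose list covered the most bases, had the highest value of the 4 microglia libraries at all 7 genes.

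In total cells, Cyba, Ncf4 and Vav1 had more covered bases in both 5XFAD than in both WT libraries, 3 of the 4 oxidase genes with a total cell peak, against 27.5% of the 13205 genes with one. Of these 4 genes, 0 had fewer in both (9.34% of genes). With the higher-scoring 50% of each list the count of 3 was 1 (26.4% of genes with a total cell peak). It was 2 with equal numbers of peaks (26% of such genes) and stayed 3 per Mb of the list (18.5%). Microglial markers followed the same order: 6 and 7 of 12 had a peak in 5XFAD total cells and 2 to 5 in WT total cells, with 3.55 to 6.66 kb covered in sum against 1.37 to 2.40 kb. That order was not particular to microglial markers. The summed covered length in total cells was 2.36 to 4.12 kb in 5XFAD and 0.940 to 2.06 kb in WT mice for astrocyte markers, 3.12 to 4.93 kb and 0.208 to 0.946 kb for oligodendrocyte markers, and 2.82 to 5.55 kb and 0.458 to 0.922 kb for vascular markers. For neuronal markers the genotypes overlapped, at 1.19 to 3.24 kb in 5XFAD and 2.89 to 3.57 kb in WT mice. Aif1, Ptprc, C1qa and C1qb had no peak in any total cell library. The part of these markers in the oxidase values was not tested. That of list length was not tested beyond equal numbers of peaks and scaling per Mb. Over both preparations together, 5XFAD minus WT ranged from 13.25 bases at Ncf1 to 901.5 bases at Vav1, with exact permutation p-values of 0.167 to 1.0 over 36 arrangements, where the smallest possible p is 0.0556, and adjusted p-values of 0.724 to 1.0.

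Around the oxidase, 43 further genes of the pathway were examined by role. A peak in all 4 microglia libraries was found at 29 of them (39% of all genes). In all 4 total cell libraries it was found at 20 (33%), and in all 8 at 17 (26.7%). The counts by role below are to be read beside these shares of all genes. The 3 partners of the enzyme were all marked in every microglia library. Cybc1, a chaperone of the membrane core, was marked in all 8 libraries, with 872 ± 324 covered bases in microglia and 630 ± 292 in total cells (SD, n = 4; exact permutation p = 0.286, adjusted p = 0.454). The proton channel gene Hvcn1 and Rap1a lacked a peak in 1 library, which was a total cell library of 5XFAD mice.

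The other NADPH oxidases and their subunits were almost without peaks, whereas 66% of all genes had a peak in at least 1 library. Nox1, Nox3, Nox4, Duox2, Noxo1 and Noxa1 (6 of 7) had no peak in any library. Duox1 had peaks in 1 microglia and 2 total cell libraries, all of 5XFAD mice. Those of total cells covered only 0.002 and 0.134 kb of its window. Of the kinases that act on the oxidase, 5 of 6 were marked in all microglia libraries and 4 in all 8, among them Irak4, Prkca, Prkcb and Prkcd. Of the Rac activators and regulators, 6 of 8 were marked in all microglia libraries and Arhgdib, Prex1, Tiam1 and Vav2 in all 8. Vav3, a relative of Vav1, was the 1 gene of the 43 with a peak in all 4 total cell lists and none in microglia (0.982% of all genes), at 0 covered bases in microglia and 978 ± 812 in total cells (SD, n = 4). Cdc42, a GTPase close to Rac, and Fcer1g, the signalling chain of Fc receptors, had the microglia-only pattern (2 of 43 genes, against 1.2% of all genes), with 990 ± 766 and 828 ± 662 covered bases in microglia and 0 in total cells (SD, n = 4). Rac3, a further Rac gene, had no peak in any library.

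The upstream receptors and adaptors were marked in all microglia libraries at 5 of 6 genes, and Itgb2, the integrin chain shared by CD11b, in all 8 libraries. Clec7a, the beta-glucan receptor, had a peak in 1 library of 5XFAD microglia only. The PI3 kinase genes Pik3cd, Pik3cg and Pik3r5 were all marked in every microglia library, and Pik3cg and Pik3r5 in all 8. Genes that remove superoxide and peroxide were marked in both preparations: Cat, Gpx1, Prdx1, Sod2 and Txn1 (5 of 7) had peaks in all 8 libraries. Covered bases were above all total cell values in every microglia library at 21 of the 43 genes and at 17 of 43 per Mb of the list. The shares among all genes with a peak were 28% and 10.6%, and 7 of the 43 genes had no peak in any library. Among the 7 removal genes the counts were 1 and 0, too few genes to set apart from these shares.

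**Figure D4:**
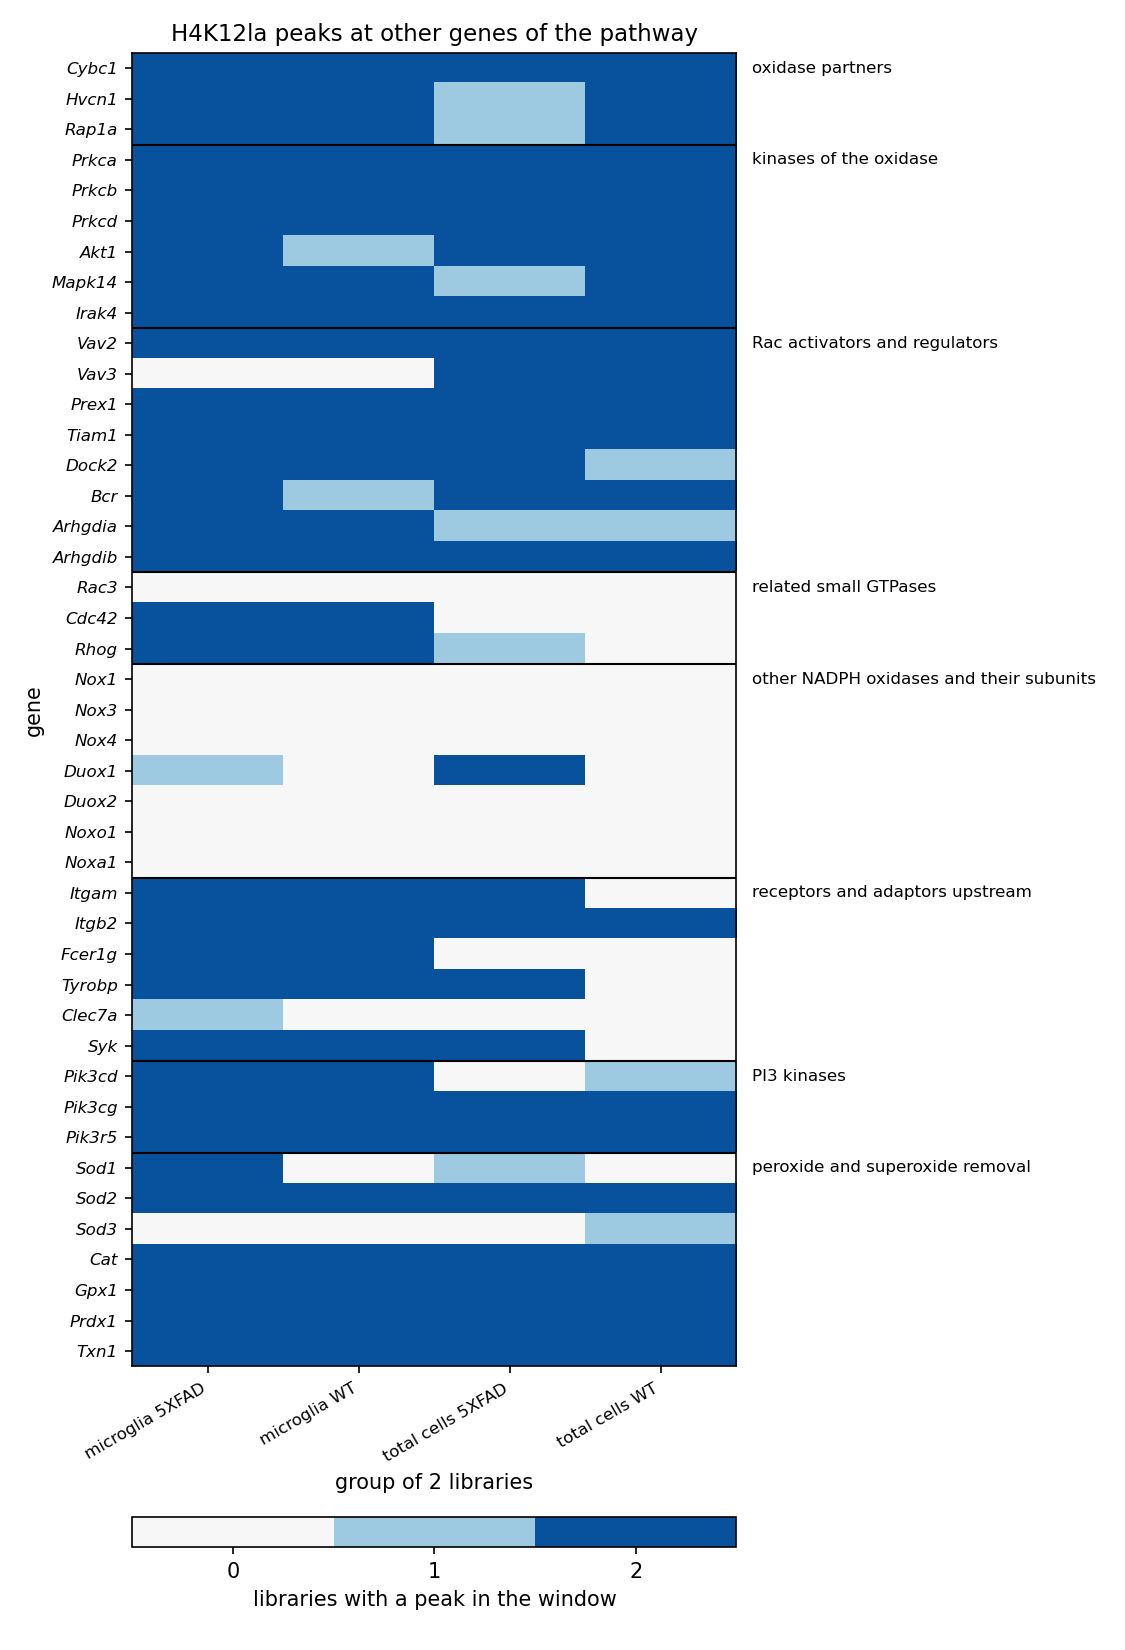
Number of libraries with an H4K12la peak (0, 1 or 2, by colour) in the window of each of 43 pathway genes, listed from top to bottom by role, in the 4 groups of 2 libraries. The rows of other NADPH oxidases are almost empty, while those of the oxidase partners are nearly filled in all 4 groups.

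By the percent of the window covered over the 8 libraries, the genes most like each oxidase gene were sought among 11472 genes with a peak in at least 4 libraries. For Ncf1 they were Tnk1, Scmh1 and Narf (Pearson r of 0.998, 0.997 and 0.997 over 8 libraries), and for Rac2 they were Ppm1m, Bri3bp and Hs6st2 (0.999, 0.998 and 0.998). For Vav1 they were H2ac8, Inka2 and B3gnt3 (0.998, 0.997 and 0.997), and for Ncf4 Cd300a, Eif2ak3 and Fez2 (0.997, 0.996 and 0.996). Cyba was followed most closely by Ndufa13, Tssk6 and Mtg1 (0.994 each) and Rac1 by Nfix, Hnrnpu and Tnrc6b (0.993, 0.993 and 0.992). Ndufa13 and Tssk6 had the same r (0.99393) and the same ratio of microglia to total cell coverage. Whether these 2 genes hold the same peaks was not checked, so they may not be separate matches. All these values share the 8 lists and their lengths, and describe the libraries only. A high r does not mean equal coverage. In total cells Scmh1 and Narf had a mean of 1.03% and 3.19% of the window covered, where Ncf1 had 0.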

How the data were processed

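CUT&Tag for H4K12la was performed on total brain cells and microglia of 5XFAD and WT mice (8 libraries, 2 per group, grouped and numbered as in the titles). Per the submitters' processing notes, the tools included deepTools, Bowtie2 and fastp 0.19.6, and the build was GRCm38 (mm10). How peaks were called, at which threshold and against which control is not given in the sources used here. For each library the authors deposited 1 headerless peak list, holding positions and an integer score for each peak. The unit of the deposited score is not stated and its lowest value was 20 in every list, so it served only for ranks and filters inside each list. Starts were taken as counted from 0 and are printed counted from 1. Depth is unknown from these lists.

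Gene spans, promoter sequences and start sites came from RefSeq tables of the same build (GRCm38.p6); all 7 genes matched a span and 4 a promoter. The members and gene lists were chosen with earlier results of these data known. Covered bases are the bases of a window under merged peaks of 1 list, compared with exact two-sided permutation tests (70 assignments of 4 against 4, or 36 arrangements of genotypes within preparations), adjusted by Benjamini-Hochberg over the 14441 genes with a peak, at a threshold of 0.05. The genes named were the 7 members; of the listed pathway genes and markers, those of one preparation only, those with no peak and up to 4 per group with peaks in all 8 libraries; and the 3 genes most like each member. Genes of the lists named beyond these (such as Hvcn1, Rap1a, Duox1, Clec7a, Txn1, C1qa, Pik3cd and Mrc1) were chosen after their values were seen. Some listed genes are not reported here. At most 3 peaks had the same interval and score in 2 lists, so no library was a copy of another. Alternatives were another window (none, 5 kb), the higher-scoring 50% of peaks, a score of at least 50, equal numbers of peaks, peak midpoints, covered bases per Mb of the list, a replicate block and leaving out each library. Python 3.11.15, numpy 2.4.6 and pandas 2.3.3 were used, and the code was tested on simulated data.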

Additional observations from a re-analysis of the deposited data

Results flagged for a closer look

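Cybb was set apart by 1 library among the 4 of microglia: 1183 bases were covered in microglia 5XFAD 2, against 0 in microglia 5XFAD 1 and in both WT microglia libraries. Any gene with peaks in a single library is set apart in this way, and 37.2% of the regions in the windows of all genes came from 1 library. When all lists were limited to equal numbers of peaks, the value was 0 in all 8 libraries.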

How the results depend on the processing

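The count of microglia-only genes, 2 as reported, was 2 or 3 under each alternative run, while 1.03% to 2.33% of all genes met that rule. More covered bases in every microglia library were found at 6 genes under each alternative run, except 4 genes per Mb of the list. Of the genes with a peak, 21.5% to 43.9% met this rule, and 10.6% per Mb of the list. With a library left out, an exact permutation p cannot go below 0.0571. In microglia, the count of genes with more covered bases in both 5XFAD libraries, 1 as reported, was 0 with no flank, with a score of at least 50, with equal numbers of peaks and per Mb of the list. Under these settings 21.8% to 33.2% of genes with a microglia peak met the rule. The count was 1 to 7 with a microglia library left out (33.9% to 78% of such genes), reaching 7 without 5XFAD 1 and 4 without WT 2. In total cells, that count, 3 as reported, was 1 both for the higher-scoring 50% of peaks and for scores of 50 or more. It was 2 with equal numbers of peaks. Under these settings 26% to 27.5% of genes with a total cell peak met the rule. Per Mb of the list the count stayed 3, where 18.5% of such genes met the rule. With a total cell library left out the count was 3 to 4, where 35.1% to 63.6% of such genes met the rule.

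The direction of 12 genotype differences, none of which passed a test, turned (5XFAD minus WT over both preparations, in bases). That of Ncf1 became -62.8 with no flank, -34.8 with a score of at least 50, -159.8 with equal numbers of peaks, -62.8 with midpoints and ranged from -230.5 (without microglia 5XFAD 2) to 257 (without microglia 5XFAD 1) with a library left out. That of Vav1 became -103.0 with the higher-scoring 50% of peaks, -11.8 with equal numbers, and ranged from -117.2 to 1920 without 1 or the other of the same libraries, and that of Rac1 -90.8 with the higher-scoring 50%. Per Mb of the list, Cyba stood at -2.55, Ncf1 at -11.3 and Rac2 at -2.59. The cause was not tested. With the replicate block, 6 genes were above in microglia, each with an exact permutation p of 0.0556, against 0.0286 without the block. At each number, 4 of 7 genes in microglia (57.6% of genes with a microglia peak) had more covered bases in 5XFAD. So did 3 of the 4 genes with a total cell peak (36.9% of such genes). The replicate numbers mark no stated pairing, and deviations of same-numbered libraries correlated by only -0.0575 to 0.150. Unknown depth and the authors' score minimum of 20 limit what the absence of a peak shows.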
